A study of Mus musculus with 4 samples.

Results

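The genes for the protein subunits of the mitochondrial ribosome were followed in natural killer T (NKT) cells stimulated through their antigen receptor. All symbols in the deposited count table that begin with Mrpl or Mrps followed by a number were taken, which gave 77 of 12020 genes, 48 Mrpl and 29 Mrps. Both groups of libraries came from NKT cells of C57BL/6 mice aged 10 to 12 weeks that carried a Vα14 receptor transgene (Va14 Tg) and 1 allele of Cxcr6 with GFP inserted (cxcr6gfp/+), sorted as GFP-high cells. Liver is the labelled tissue, although livers or spleens are named in the protocol. The 2 tetramer libraries came from cells given PBS57-loaded mouse CD1d tetramers bound to a plate, PBS57 being a lipid antigen. The 2 resting libraries came from cells kept without stimulation. Neither the time in culture nor the number of mice behind a library is stated, and the transgene fixes the receptor α chain of the cells, which limits them as a model of natural NKT cells. Libraries are named 4 or 5 after their columns, numbers that the sample titles do not use.

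The mitochondrial ribosome makes the few proteins encoded by mitochondrial DNA, which belong to the enzymes of oxidative phosphorylation. Its own proteins are encoded in the nucleus, made in the cytosol and imported. The large subunit, built mainly from Mrpl proteins, joins amino acids and passes the new chain through an exit tunnel to the inner membrane. The small subunit, built mainly from Mrps proteins, binds the messenger RNA and reads its codons. Some of these proteins have bacterial homologs, and others are found only in mitochondrial ribosomes. Activated T cells are known to enlarge their mitochondria and to depend on mitochondrial translation for growth and effector function.

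Each library held between 4168438 and 5495521 counts, and all 77 genes passed the expression filter of edgeR. Values are CPM, counts scaled to 1e+06 of the TMM-scaled library size. CPM is not corrected for transcript length, so levels are compared between libraries and not between genes. In bulk RNA, fewer cells of a type and less RNA per cell cannot be told apart. All 8 markers listed for NKT and T cells were in the table, with summed levels of 2497 and 3426 CPM in tetramer libraries 4 and 5 and of 3494 and 3206 CPM in resting libraries 4 and 5, and 2 of them were called lower and 0 higher (Cxcr6 and Klrb1c). Markers of pancreatic islets (Ins1, Ins2 and Gcg) summed to 218 and 406 CPM in the tetramer libraries and to 247 and 921 CPM in the resting libraries, with none past the threshold, and the labels' protocol speaks of islets for RNA extraction. Markers of red cells (Hbb-b1, Hba-a1 and Alas2) summed to 19.2 and 45.9 CPM in the tetramer libraries and to 89.9 and 247 CPM in the resting libraries, and all 3 were called lower. Those of hepatocytes summed to 8.18 and 11.5 CPM in the tetramer libraries and to 24.9 and 37.2 CPM in the resting libraries, where 2 of 6 were in the table, 1 was called lower, and Alb, Apoa1, Apoa2 and Fgb are not analysed here. Summed levels were likewise lower in both tetramer libraries for 4 B cell markers (13.3 and 16.6 CPM, against 21.3 and 29.7 CPM in resting cells, 1 called higher, 1 lower and 1 not tested), for 2 of 5 macrophage markers (7.98 and 8.09 CPM, against 19.1 and 23.1 CPM, 1 called lower) and for 1 of 4 endothelial markers (10.2 and 15.8 CPM, against 74.996 and 28.8 CPM, called lower). Their part in the results was not tested.

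Transcripts of mitochondrial ribosomal proteins were higher in tetramer-stimulated than in resting NKT cells for 37 of the 77 genes and lower for 0, at an adjusted p below 0.05 in the quasi-likelihood test of edgeR. Among all 11312 genes tested, 14.3% were called higher and 12.1% lower. The median log2 fold change of the 77 genes was 1.01, against -0.06 for all genes tested. At an unadjusted p below 0.05, 46 of the 77 were higher and 0 lower. DESeq2 and limma-voom each called 38 higher and 0 lower. In 56 of the 77, both tetramer libraries lay above both resting libraries, an order seen in 30.9% of all genes, and in 0 of the 77 did both lie below, an order seen in 32.9%. The 37 called genes were all among these 56.

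The number of calls depended on the libraries. Without tetramer library 4 it was 12 of 77, where 5.33% of all genes were called higher, and without resting library 4 it was 24, where 13.1% were. Some of the 37 calls were also lost without tetramer library 5. Without resting library 5 some were lost, while other genes of the family were newly called. The median log2 fold changes of the 77 genes were then 1.15 and 1.30, against -0.12 and -0.002 for all genes. With plain library totals in place of TMM factors, 22 of the 77 were called higher, where 10.5% of all genes were. The median of all genes then moved to -0.35, so each direction is relative to the scaling used. The 11 genes called whichever single library was left out were Mrpl20, Mrpl47, Mrpl48, Mrpl52, Mrpl54, Mrpl55, Mrps2, Mrps6, Mrps7, Mrps10 and Mrps18b.

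**Figure D1:**
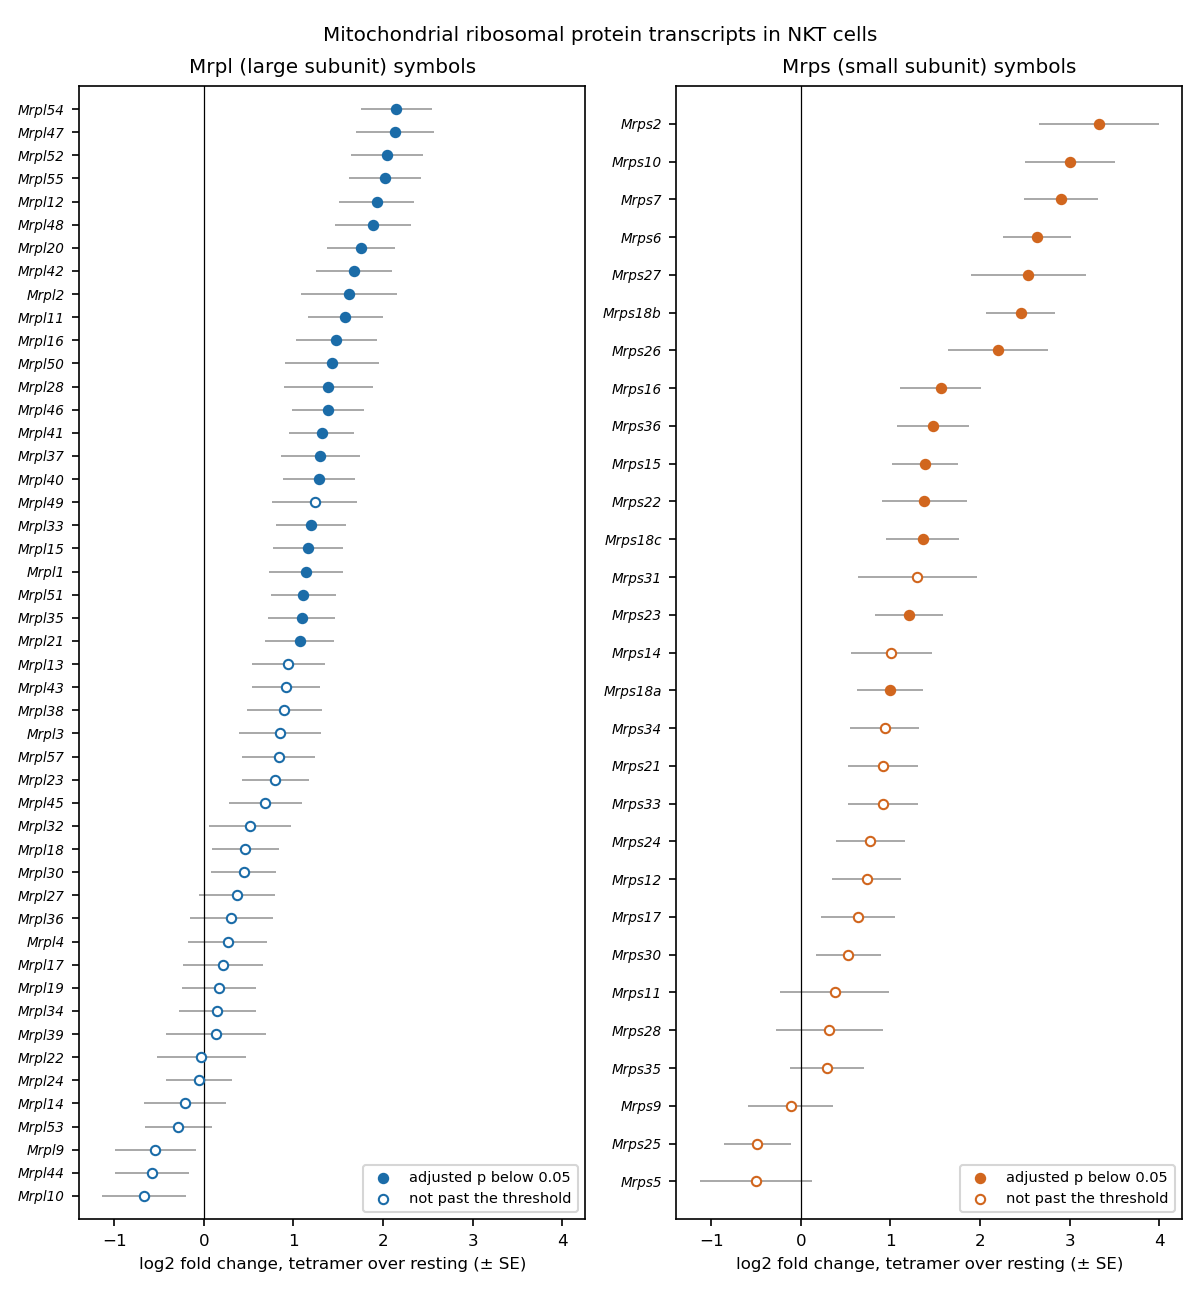
Log2 fold change, tetramer over resting, with its standard error for each of the 48 Mrpl genes (left, blue) and 29 Mrps genes (right, orange), ranked within each panel. Filled points passed an adjusted p of 0.05, and they run from 0.99 (Mrps18a) to 3.33 (Mrps2), while the open points run from -0.67 (Mrpl10) to 1.30 (Mrps31).

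By symbol, 23 of 48 Mrpl genes and 14 of 29 Mrps genes rose, with median log2 fold changes of 1.01 in each. The shares, 47.9% and 48.3%, were nearly equal. The upper ends differed, since the highest log2 fold change was 2.15 among Mrpl genes (Mrpl54) and 3.33 among Mrps genes (Mrps2). The difference between the subunits was not tested. Without tetramer library 4, 7 Mrpl and 5 Mrps genes rose, and without resting library 4, 15 and 9 did.

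Summed over the family, mitochondrial ribosomal protein genes took 0.816% and 0.824% of all counts in tetramer libraries 4 and 5, against 0.451% and 0.506% in resting libraries 4 and 5. Mrpl genes took 0.572% and 0.624% in the tetramer libraries, against 0.327% and 0.389% in the resting libraries. Mrps genes took 0.244% and 0.200% in the tetramer libraries, against 0.124% and 0.117% in the resting libraries. All these shares were higher in both tetramer libraries. The count of all Mrpl genes over that of all Mrps genes was 2.34 and 3.13 in the tetramer libraries, against 2.64 and 3.31 in the resting libraries, so the groups overlapped. Mrpl52 made up 21.1% and 29.5% of the Mrpl counts in the tetramer libraries, against 11.2% and 13.6% in the resting libraries. Without that gene the ratio was 1.85 and 2.21 in the tetramer libraries, against 2.35 and 2.86 in the resting libraries. Leaving out Mrpl52 alone lowers the tetramer ratios more by construction, because its share of Mrpl counts was larger there. Mrps6 was kept, with 2139 and 1767 counts in the tetramer libraries, against 319 and 288 counts in the resting libraries. The separation without Mrpl52 is therefore no measure of a shift between the subunits.

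The largest rises were in the small subunit. Mrps10, a head protein with a bacterial homolog, had 52.4 and 44.7 CPM in tetramer libraries 4 and 5, against 4.35 and 7.69 CPM in resting libraries 4 and 5. Its log2 fold change was 3.01 ± 0.50 (SE), with an edgeR adjusted p of 8.1e-05. Mrps7, the homolog of the bacterial protein that organises the head around the ribosomal RNA, had 136 and 108 CPM in the tetramer libraries, against 14.3 and 18.2 CPM in the resting libraries. For both genes every tetramer value was several times every resting value. Mrps7 rose by 2.91 ± 0.41 on the log2 scale (edgeR adjusted p = 1.3e-05). Mrps2, also of bacterial descent, had 78 and 70 counts in the tetramer libraries, against 6 and 8 counts in the resting libraries, and was named after its values were seen because its log2 fold change of 3.33 ± 0.67 was the highest of the family.

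Mrps6, a platform protein, had 438 and 357 CPM in the tetramer libraries, against 66.1 and 61.5 CPM in the resting libraries. Its log2 fold change was 2.64 ± 0.38 (edgeR adjusted p = 1.6e-05). The groups lay far apart, although exons of Mrps6 overlap those of Slc5a3 on the same strand in GENCODE M21. Slc5a3, a myo-inositol transporter gene, had a log2 fold change of 0.95 that did not pass the threshold (edgeR adjusted p = 0.0705). Mrps26, a protein found only in mitochondrial ribosomes, had 31.9 and 15.8 CPM in the tetramer libraries, against 5.59 and 4.70 CPM in the resting libraries (log2 fold change 2.21 ± 0.56). Mrps16, whose loss causes a respiratory chain deficiency in humans, had 67.1 and 49.6 CPM in the tetramer libraries, against 13.1 and 26.5 CPM in the resting libraries (log2 fold change 1.56 ± 0.45). Groups did not overlap for Mrps26 or Mrps16. The calls of Mrps26 and Mrps16 were lost without tetramer library 4 (edgeR adjusted p = 0.230 and 0.161), and that of Mrps16 also without resting library 4 (0.0827), while its log2 fold change was 2.18 without resting library 5.

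Mrps18 exists as 3 paralogs in mammals, and structures place Mrps18b and Mrps18c in the small subunit and Mrps18a in the large subunit. Mrps18b had 204 and 173 CPM in the tetramer libraries, against 30.7 and 38.0 CPM in the resting libraries. Mrps18c had 83.1 and 61.3 CPM in the tetramer libraries, against 24.03 and 32.3 CPM in the resting libraries. Mrps18a had 115 and 115 CPM in the tetramer libraries, against 62.4 and 53.2 CPM in the resting libraries. All 3 rose, with log2 fold changes of 2.46 ± 0.39 for Mrps18b, 1.36 ± 0.41 for Mrps18c and 0.99 ± 0.37 for Mrps18a. Whether the paralogs differ from each other was not tested. The call of Mrps18a (edgeR adjusted p = 0.0477) was lost whichever library was left out, and that of Mrps18c without library 4 of either group.

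**Figure D2:**
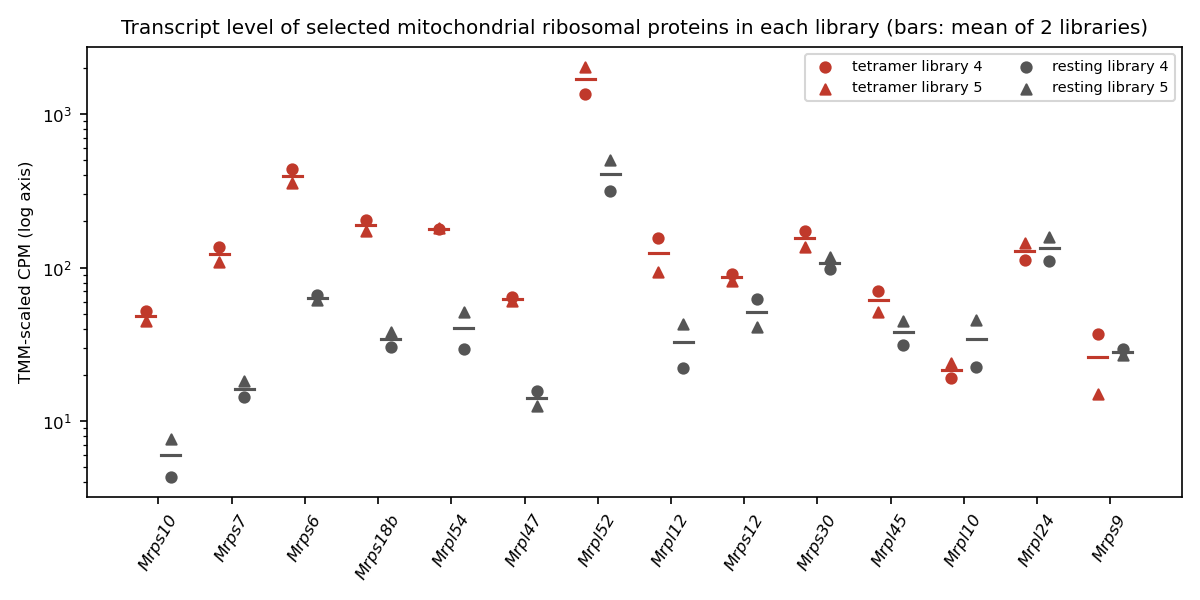
TMM-scaled CPM on a log axis for 14 mitochondrial ribosomal protein genes, with red points for tetramer libraries, grey points for resting libraries, circles for library 4, triangles for library 5 and bars for group means. The 8 genes from Mrps10 to Mrpl12 have every tetramer value above every resting value, while Mrpl10, Mrpl24 and Mrps9 overlap.

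Other Mrps symbols belong elsewhere by structure. Mrps30, a large-subunit protein in spite of its name, had 174 and 136 CPM in the tetramer libraries, against 97.4 and 118 CPM in the resting libraries, and did not pass the threshold (log2 fold change 0.53 ± 0.36, edgeR adjusted p = 0.291). Mrps36, since recognised as a subunit of the 2-oxoglutarate dehydrogenase complex of the TCA cycle rather than of the ribosome, had 102 and 74.6 CPM in the tetramer libraries, against 25.5 and 38.0 CPM in the resting libraries. It rose by 1.48 ± 0.40 on the log2 scale (edgeR adjusted p = 0.00842), a call lost without library 4 of either group (adjusted p = 0.0543 without that of resting cells and 0.156 without that of tetramer cells). RefSeq lists pseudogenes of Mrps36, and how reads common to several genes were counted is not stated. Grouped by structure, 24 of 50 large-subunit genes and 12 of 26 small-subunit genes rose, with median log2 fold changes of 0.97 and 1.11. Mrps12, at the decoding centre where bacterial resistance to streptomycin arises, had 90.6 and 81.9 CPM in the tetramer libraries, against 62.4 and 41.2 CPM in the resting libraries, with a log2 fold change of 0.74 ± 0.39 that was not called (edgeR adjusted p = 0.160).

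In the large subunit, Mrpl54 and Mrpl47 had the largest changes. Mrpl54, found only in mitochondrial ribosomes, had 178 and 180 CPM in the tetramer libraries, against 29.4 and 51.3 CPM in the resting libraries (log2 fold change 2.15 ± 0.39, edgeR adjusted p = 0.000239). Mrpl47, a homolog of a bacterial protein at the tunnel exit, had 64.7 and 60.3 CPM in the tetramer libraries, against 15.7 and 12.6 CPM in the resting libraries (log2 fold change 2.14 ± 0.44, edgeR adjusted p = 0.000758). Values of the groups lay apart for both. Exons of Mrpl47 overlap those of Actl6a and Ndufb5 on the opposite strand, and whether counting used strand is not stated. Actl6a rose by 1.01 on the log2 scale (edgeR adjusted p = 0.0402) and Ndufb5 was at 0.72, not called.

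Mrpl11 and Mrpl12, with Mrpl10, form the flexible stalk that recruits translation factors, and 2 of the 3 rose, where 14.3% of all genes did. Mrpl12 had 156 and 93.0 CPM in the tetramer libraries, against 22.4 and 43.0 CPM in the resting libraries. It rose by 1.93 ± 0.42 on the log2 scale (edgeR adjusted p = 0.00131, and 0.0553 without tetramer library 4). Mrpl11 had 71.8 and 65.5 CPM in the tetramer libraries, against 19.1 and 26.9 CPM in the resting libraries, and rose by 1.58 ± 0.42 (edgeR adjusted p = 0.00677, and 0.0780 without tetramer library 4). Both genes had every tetramer value above every resting value. Mrpl10, the protein that anchors the stalk, had 19.2 and 23.9 CPM in the tetramer libraries, against 22.6 and 45.9 CPM in the resting libraries. Its groups overlapped, and its log2 fold change of -0.67 ± 0.46 did not pass the threshold (edgeR adjusted p = 0.296), ranging from -1.08 to -0.04 with single libraries left out. The difference between Mrpl10 and the other stalk genes was not tested.

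Of 8 genes for the central protuberance, the crown of the large subunit that contacts the small subunit, 5 rose and 3 were not called. The share that rose was 62.5%, against 14.3% of all genes, and the median log2 fold change of the 8 was 1.34. Mrpl52 had 1355 and 2009 CPM in the tetramer libraries, against 317 and 500.0 CPM in the resting libraries (log2 fold change 2.04 ± 0.40). Mrpl55, the homolog of a bacterial protein at a bridge between the subunits, had 88.2 and 95.7 CPM in the tetramer libraries, against 20.7 and 24.6 CPM in the resting libraries (log2 fold change 2.02 ± 0.41). Mrpl48 had 80.4 and 65.5 CPM in the tetramer libraries, against 18.2 and 21.2 CPM in the resting libraries (log2 fold change 1.89 ± 0.42). All 3 were called with edgeR adjusted p-values of 0.000529, 0.000626 and 0.00165. Exons of Mrpl48 overlap those of Rab6a on the opposite strand, which had a log2 fold change of -0.70 that was not called. Mrpl40 and Mrpl46 also rose. Mrpl18, Mrpl27 and Mrpl38 had values between 0.37 and 0.90 and were not called. Without resting library 4, 3 of the 8 rose.

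Of 8 genes for proteins around the peptide exit, 1 rose (Mrpl47), a share of 12.5%, near the 14.3% of all genes. Their median log2 fold change was 0.17. This median was 0.71 without resting library 5, where 2 rose, and -0.10 with plain library totals. Mrpl24 had 113 and 145 CPM in the tetramer libraries, against 110 and 157 CPM in the resting libraries, a log2 fold change of -0.05 ± 0.37. Mrpl22 had 23.1 and 14.8 CPM in the tetramer libraries, against 15.1 and 23.5 CPM in the resting libraries, a log2 fold change of -0.03 ± 0.49. Mrpl39, which resembles part of a threonyl-tRNA synthetase, had 13.9 and 8.29 CPM in the tetramer libraries, against 8.29 and 12.0 CPM in the resting libraries, a log2 fold change of 0.13 ± 0.56. In these 3 genes the groups overlapped, and each change was smaller than its standard error. Mrpl45, which helps to hold the ribosome at the inner membrane, had 70.8 and 51.8 CPM in the tetramer libraries, against 31.5 and 44.7 CPM in the resting libraries (log2 fold change 0.69 ± 0.41, edgeR adjusted p = 0.216).

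In the small subunit, 8 of 15 genes for the body and platform rose, with a median log2 fold change of 1.36, and 2 of 8 genes for the head, with a median of 0.96. The 2 in the head were Mrps7 and Mrps10, next in size of change to Mrps2 in the whole family. Head genes without a call included Mrps9, with 37.2 and 14.97 CPM in the tetramer libraries, against 29.6 and 26.9 CPM in the resting libraries, and Mrps35, with 76.1 and 40.7 CPM in the tetramer libraries, against 53.0 and 42.3 CPM in the resting libraries. In both, tetramer library 4 was high and tetramer library 5 was low, so the groups overlapped. Mrps28, a body protein, had 10.4 and 8.09 CPM in the tetramer libraries, against 10.2 and 4.70 CPM in the resting libraries, which also overlapped. By assigned descent, 20 of 46 genes placed with a bacterial homolog and 16 of 30 placed as mitochondrial only rose, with median log2 fold changes of 0.88 and 1.22. Mrps18a and Mrps18b, which rose, were placed as mitochondrial only, although their paralog Mrps18c was placed with a bacterial homolog. The contrast by descent therefore depends on that placing. None of these differences between places or between lines of descent was tested. Without tetramer library 4 the body and platform held 2 genes that rose, and without resting library 5 the head held 4.

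**Figure D3:**
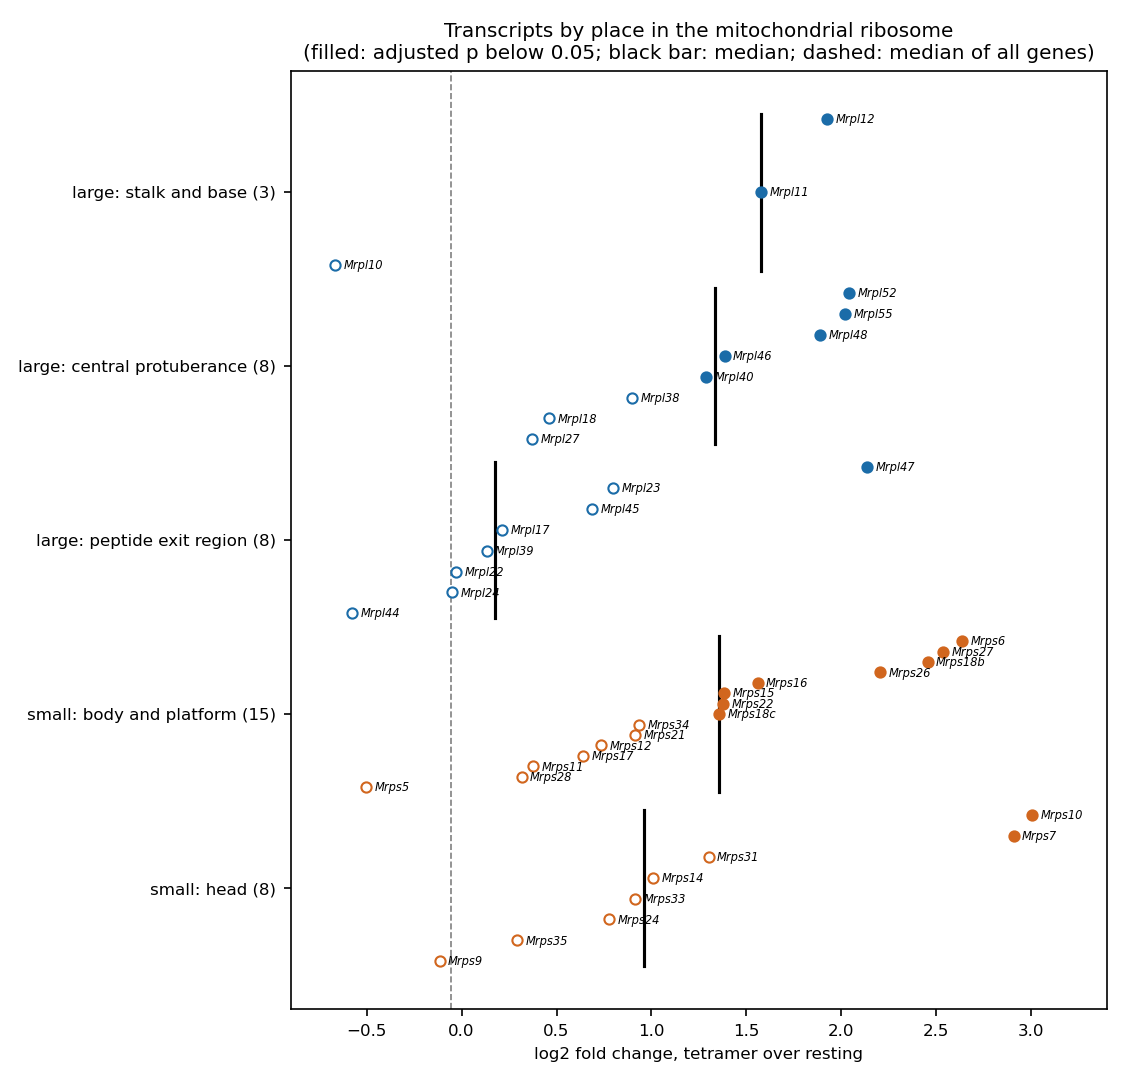
Tetramer over resting as a log2 fold change for each gene whose protein was assigned to 1 of 5 places in the ribosome, with the number of genes in parentheses. Filled points passed an adjusted p of 0.05, black bars are medians (1.58, 1.34, 0.17, 1.36 and 0.96 from top to bottom) and the dashed line is the median of all genes tested, -0.06.

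The genes that were not called differed in how well their libraries matched. Of the 40, 19 had both tetramer libraries above both resting libraries and 21 overlapped. Resting libraries differed by more than 2-fold in CPM for 14 of the 77 genes, up to 5.62-fold for Mrps11, and tetramer libraries for 4, up to 2.49-fold for Mrps9. The median difference was 1.35-fold between the tetramer libraries and 1.43-fold between the resting libraries. Tetramer library 4 was the higher of its pair in 62 of the 77 genes, and resting library 5 in 52. Set against the mean of the resting libraries, the median gene of the family was at a log2 ratio of 1.14 in tetramer library 4 and of 0.88 in tetramer library 5.

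A further 6 proteins of the mitochondrial ribosome have other symbols. Of their genes 3 rose and 0 fell, where 14.3% of all genes rose and 12.1% fell. All 6 were higher in both tetramer libraries than in both resting libraries, an order seen in 30.9% of all genes. Ict1, a peptidyl-tRNA hydrolase built into the large subunit, averaged 49.2 ± 12.1 CPM in tetramer cells and 12.0 ± 0.263 CPM in resting cells (SD, n = 2 each). Gadd45gip1, a large-subunit protein, averaged 225 ± 25.1 CPM in tetramer cells and 67.1 ± 6.68 CPM in resting cells. Chchd1, a small-subunit protein, averaged 107 ± 26.3 CPM in tetramer cells and 46.3 ± 12.2 CPM in resting cells. Their log2 fold changes were 2.03 ± 0.46, 1.74 ± 0.37 and 1.20 ± 0.39 (edgeR adjusted p = 0.00184, 0.00113 and 0.0234). The calls of Ict1 and Chchd1 were lost without tetramer library 4 (0.0651 and 0.302), and that of Chchd1 also without resting library 5 (0.119). Dap3, Ptcd3 and Aurkaip1 had log2 fold changes of 0.68, 0.64 and 0.84 and were not called.

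Genes that build and run the ribosome were counted by list. Of 23 tested genes for its assembly and RNA modification, 2 rose (8.70%) and 1 fell (4.35%), shares no higher than the 14.3% and 12.1% of all genes. Their median log2 fold change was 0.14, and -0.16 with plain library totals. Rnmtl1, a methyltransferase of the large ribosomal RNA, had 14.8 ± 4.004 CPM in tetramer cells and 1.98 ± 1.30 CPM in resting cells. Ddx28, a helicase for large-subunit assembly, had 8.86 ± 2.81 CPM in tetramer cells and 1.90 ± 0.637 CPM in resting cells. The gene that fell was Mettl17, a small-subunit assembly factor, named after its values were seen, at 15.6 and 13.4 CPM in the tetramer libraries, against 37.3 and 40.4 CPM in the resting libraries (log2 fold change -1.42 ± 0.46, edgeR adjusted p = 0.0221). Its groups lay apart, but without tetramer library 4 or tetramer library 5 no gene of the list was called lower. Without tetramer library 4 no gene of this list was called higher.

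Of 13 translation factors of mitochondria 3 rose (23.1%) and 0 fell, of 16 mitochondrial aminoacyl-tRNA synthetases 3 (18.8%) and 0, and of 18 genes for mitochondrial DNA and RNA synthesis and processing 2 (11.1%) and 0, shares near the 14.3% of all genes that rose. The median log2 fold changes were 0.10, 0.09 and 0.37, and the signs of the first pair were not stable. Translation factors had -0.18 with plain library totals, -0.09 without resting library 4 and -0.05 without tetramer library 4. They had -0.08 with the stricter filter and -0.02 with limma-voom or a block by column number. Synthetases had -0.21 with plain library totals, -0.08 with no filter and -0.12 with the stricter filter. In the other settings both medians were above 0. Of the synthetases, 0 rose without tetramer library 4, and 2 were called lower without resting library 5. Of the translation factors, 1 rose without resting library 5 or tetramer library 4. Mrrf, the ribosome recycling factor, averaged 23.8 ± 3.93 CPM in tetramer cells and 4.35 ± 3.52 CPM in resting cells, and Guf1, a translocase-like GTPase, 17.4 ± 4.32 CPM in tetramer cells and 5.56 ± 1.51 CPM in resting cells. Yars2 and Mars2, which charge the tRNAs for tyrosine and methionine, rose by 2.22 ± 0.59 and 2.08 ± 0.62 on the log2 scale. Single resting libraries moved some of these values: Yars2 was at 3.45 without resting library 4 and 1.59 without resting library 5, Mrrf at 1.81 and 3.68, and Rnmtl1 at 3.77 without resting library 4, against 2.87 with all libraries. Slirp and Lrpprc, partners that stabilise mitochondrial messenger RNAs, rose by 1.51 ± 0.37 and 1.06 ± 0.40. The calls of Ddx28, Guf1, Yars2, Mars2, Rnmtl1 and Lrpprc were lost without tetramer library 4. For Lrpprc the call was lost whichever library was left out, for Guf1 also without resting library 5 or tetramer library 5, and for Ddx28 also without tetramer library 5.

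Cytosolic ribosomal protein genes, chosen by the symbols Rpl and Rps with a number, numbered 74, of which 14 rose and 0 fell, and their median log2 fold change was 0.62. Complex I is the enzyme with the most subunits made by mitochondrial ribosomes, but its Nduf subunits are encoded in the nucleus. Genes of Nduf subunits numbered 36, of which 14 rose and 0 fell, and their median was 0.76. With plain library totals 1 cytosolic ribosomal protein gene and 1 Nduf gene fell. The share called was thus 18.9% for cytosolic ribosomal proteins, 38.9% for complex I and 48.1% for mitochondrial ribosomal proteins, against 14.3% of all genes. Without library 4 of either group, fewer genes of each family were called, and the cytosolic share was below that of all genes. In the same order of families, the median log2 fold changes without tetramer library 4 were 0.47, 0.66 and 0.89, against -0.09 for all genes. Without resting library 4 they were 0.44, 0.72 and 0.94, against 0.01 for all genes. The differences between the families were not tested.

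Many genes of the family start close to another gene that is read the opposite way. In the GENCODE M21 annotation of build GRCm38, 33 of the 77 had such a head-to-head neighbour with a start within 1000 bases, and Mrpl46 and Mrps11 were each other's. Of the neighbours outside the family 27 were tested, and 6 rose (22.2%) and 4 fell. Of all genes, 14.3% rose and 12.1% fell. Among these 27 pairs, 1 rose in both genes, 12 in the ribosomal protein gene alone, 5 in the neighbour alone and 9 in neither. Mrps7 starts 126 bases from Gga3, which encodes an adaptor of vesicle sorting and had 61.8 and 102 CPM in the tetramer libraries, against 96.3 and 103 CPM in the resting libraries (log2 fold change -0.29 ± 0.38, not called). Mrps18b starts 45 bases from Ppp1r10, a regulatory subunit of protein phosphatase 1 in the nucleus, which had 36.8 and 26.7 CPM in the tetramer libraries, against 19.3 and 28.2 CPM in the resting libraries (log2 fold change 0.42 ± 0.45, not called). In both neighbours the groups overlapped, while in Mrps7 and Mrps18b they lay apart.

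For Mrpl36 the neighbour was called. This neighbour, Ndufs6, a complex I subunit whose start lies 29 bases away, had 273 and 233 CPM in the tetramer libraries, against 88.3 and 99.8 CPM in the resting libraries, and rose by 1.43 ± 0.37 (edgeR adjusted p = 0.00535), while Mrpl36 had a log2 fold change of 0.31 ± 0.47 that was not called. With single libraries left out the value of Mrpl36 ran from -0.25 to 1.30, and its resting libraries held 21.1 and 62.0 CPM, so its direction is not settled. Mrpl18 and Tcp1, a subunit of the CCT chaperonin, made a like pair, with log2 fold changes of 0.46 ± 0.38 and 2.09 ± 0.38. Pnpla7, a lysophospholipase gene next to Mrpl41, fell to 8.39 and 10.3 CPM in the tetramer libraries, against 74.0 and 47.2 CPM in the resting libraries (log2 fold change -2.69 ± 0.46, edgeR adjusted p = 0.000124), while Mrpl41 rose by 1.32 ± 0.36. Mrps12 and Sars2, the mitochondrial seryl-tRNA synthetase, start 172 bases apart and had log2 fold changes of 0.74 and 0.64, neither called. The pair with both higher was Mrpl37 and Cyb5rl, a cytochrome b5 reductase-like gene with 1 and 2 counts in the resting libraries. Exons of 23 of the 77 genes overlap those of another protein-coding gene, which is in the table for 20, and 6 of these 20 rose. Exons of Mrpl18 and Tcp1, of Mrpl36 and Ndufs6 and of Mrps7 and Gga3 overlap in that annotation, so their reads may have been shared. These pairs were picked after their values were seen, and no difference within a pair was tested.

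**Figure D4:**
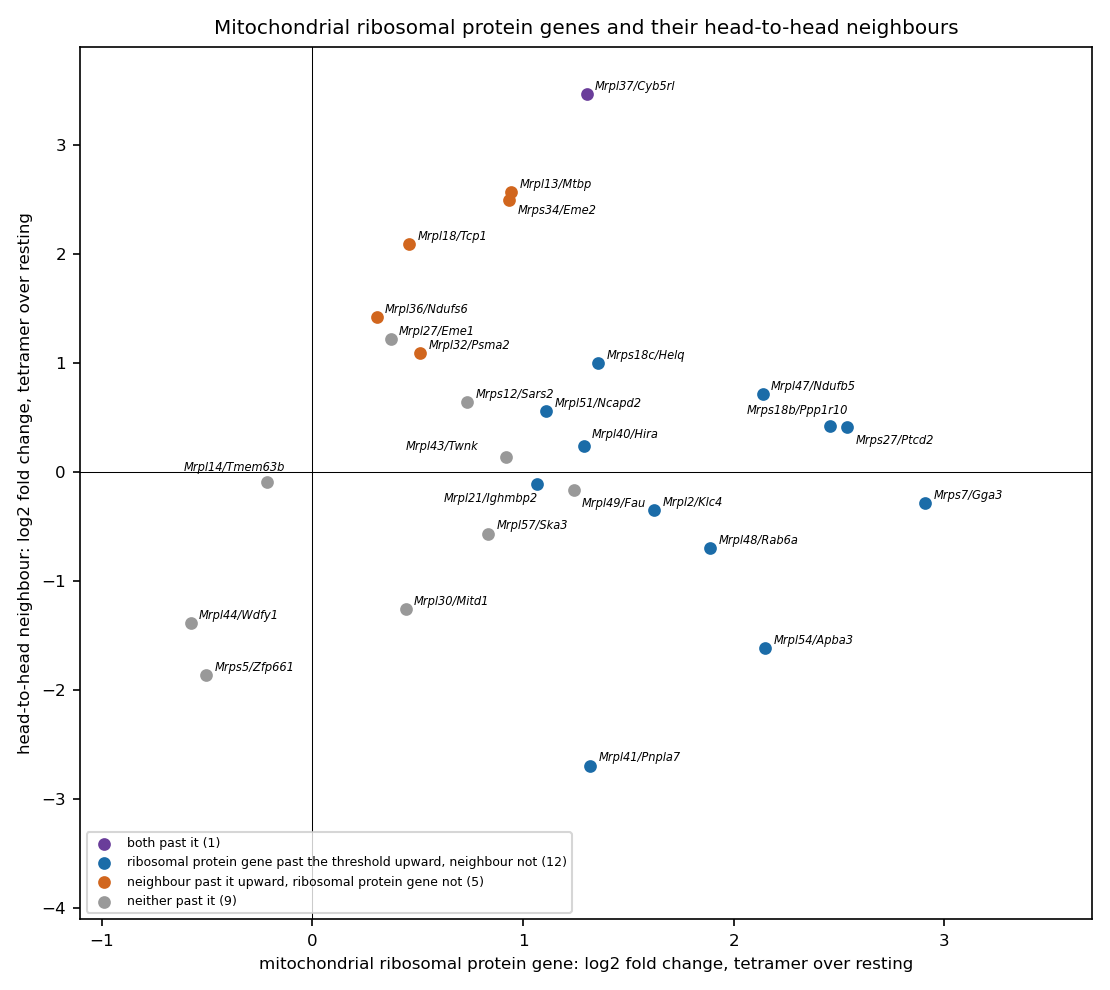
Tetramer over resting as a log2 fold change for each mitochondrial ribosomal protein gene (horizontal axis) and for its tested head-to-head neighbour outside the family (vertical axis), for 27 pairs. Colours give which gene of a pair passed an adjusted p of 0.05 upward, with 12 ribosomal protein genes and 5 neighbours doing so alone.

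Promoter sequences were read from the RefSeq table of build GRCm38.p6, which is not the mm9 build named in the submitters' processing notes. A window of 300 bases, 250 before and 50 after the annotated start, was found for 68 of the 77 genes. Windows were searched on both strands for CCGGAAG, the core bound by GABP and other ETS factors, for the NRF1 motif (GCGC, any base, TGCGC), for the E box CACGTG and for AAGATGGCG of YY1, factors known to act on nuclear genes for mitochondrial proteins or, for the E box, on Myc targets. CCGGAAG was in 35.3% of the family's windows, against 19.4% of 8592 windows of tested genes and 9.12% of all 27025 windows. The NRF1 motif was in 19.1%, against 11.0% and 4.78%. AAGATGGCG was in 11.8%, against 3.48% and 1.49%. CACGTG was in 7.35%, against 10.4% and 7.24%. Of the 35 called genes with a window, 12 held CCGGAAG, 2 held the NRF1 motif, 5 held AAGATGGCG and 4 held CACGTG. Of the 33 that were not called, 12, 11, 3 and 1 did. A match is a description of letters, not a binding site, and these shares were not tested.

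The 150 bases before the start of 8 genes, 5′ to 3′ on the gene's strand, are given with matches to the 4 motifs in capitals. Mrps10, Mrps7 and Mrps18b are given as genes with large rises. None of their printed stretches holds any of the 4 motifs, which says only that these letters are not there. Past the start, Mrps18b does hold CCGGAAG, on the opposite strand, 43 to 49 bases from the start. That match lies inside the window searched above, so Mrps18b is among the called genes counted with CCGGAAG.
Mrps10: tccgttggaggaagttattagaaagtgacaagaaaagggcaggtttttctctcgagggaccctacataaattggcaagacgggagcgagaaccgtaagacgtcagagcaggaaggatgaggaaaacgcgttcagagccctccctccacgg
Mrps7: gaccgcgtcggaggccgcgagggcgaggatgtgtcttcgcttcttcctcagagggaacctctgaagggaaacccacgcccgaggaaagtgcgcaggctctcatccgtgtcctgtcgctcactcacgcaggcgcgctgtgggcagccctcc
Mrps18b: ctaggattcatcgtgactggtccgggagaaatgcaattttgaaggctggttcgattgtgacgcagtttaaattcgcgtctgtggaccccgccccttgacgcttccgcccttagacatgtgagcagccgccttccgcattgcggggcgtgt
They lie at chr17:47369047-47369196 (plus strand), chr11:115603990-115604139 (plus strand) and chr17:35916441-35916590 (minus strand). The next 3 genes also rose and carry matches, to CCGGAAG on the opposite strand in Mrps26 and Mrpl52 and to the NRF1 motif in Mrpl12. The last capitals of Mrps26 begin a match to the NRF1 motif that runs past the start.
Mrps26: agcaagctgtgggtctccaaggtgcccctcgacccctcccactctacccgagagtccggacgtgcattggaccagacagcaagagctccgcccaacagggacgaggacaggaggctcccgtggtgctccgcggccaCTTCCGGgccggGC
Mrpl52: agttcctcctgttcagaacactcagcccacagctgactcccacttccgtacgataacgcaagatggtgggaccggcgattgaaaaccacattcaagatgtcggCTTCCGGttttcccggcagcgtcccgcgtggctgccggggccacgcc
Mrpl12: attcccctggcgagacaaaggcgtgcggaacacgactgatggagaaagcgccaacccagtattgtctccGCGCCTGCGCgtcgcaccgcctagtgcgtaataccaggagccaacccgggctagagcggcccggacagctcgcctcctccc
They lie at chr2:130563607-130563756 (plus strand), chr14:54426759-54426908 (plus strand) and chr11:120484487-120484636 (plus strand). Mrpl45 and Mrpl36 were not called. Mrpl45 holds the NRF1 motif on the opposite strand at 2 places in this stretch, and Mrpl36, whose neighbour Ndufs6 rose, holds CACGTG and, on the opposite strand, AAGATGGCG.
Mrpl45: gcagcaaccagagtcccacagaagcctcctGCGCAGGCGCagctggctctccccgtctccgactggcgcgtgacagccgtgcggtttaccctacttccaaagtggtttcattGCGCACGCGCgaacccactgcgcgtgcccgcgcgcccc
Mrpl36: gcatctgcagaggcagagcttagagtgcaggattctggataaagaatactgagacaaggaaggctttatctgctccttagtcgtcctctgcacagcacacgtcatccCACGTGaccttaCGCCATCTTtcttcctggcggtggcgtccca
They lie at chr11:97315566-97315715 (plus strand) and chr13:73330859-73331008 (plus strand).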

How the data were processed

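The authors deposited raw read counts by gene symbol, as whole numbers, for 2 tetramer and 2 resting libraries. Per the submitters' processing notes, Bowtie2, DESeq2 and build mm9 were used. The counter, and its use of strand and of shared reads, are not stated. Per the labels' protocols, poly(A) RNA was copied to cDNA and fragments were amplified by PCR. Columns show a group and a number that matches no sample title, so they were matched to groups. The table lists 12021 genes, none below 1 count in any library, so genes below that are not analysed here. Tmem138, with a cell that is not a number, was dropped.

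Counts were tested with edgeR 4.0.16 (R 4.3.3), using quasi-likelihood F tests on the 11312 genes past its default filter, with TMM scaling and Benjamini-Hochberg adjustment over all genes tested. Standard errors come from the F statistic. The libraries of a group may be technical replicates, so p-values measure only the spread between these libraries. Within groups, counts differed beyond sampling noise, with a chi-square of 28.0 (tetramer) and 30.9 (resting) times its degrees of freedom. DESeq2 1.42.0, limma-voom (limma 3.58.1), other scalings and filters, a test against a fold of 1.5, a block and leaving out each library were alternatives. On simulated counts for 11109 genes in this design, 0 of 50 genes set to a 2-fold change were called, 29 of 50 at 4-fold and 50 of 50 at 8-fold, beside 9 unchanged genes. Every simulated gene had the same spread between libraries, while the real fit estimated it by gene. The simulated counts therefore do not give the power of the real test, which called Mrps18a at a log2 fold change of 0.99.

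Genes were named by rule: per symbol class the 6 called genes with the largest change, a mean of at least 10 CPM and groups that did not overlap, and the 3 uncalled with the smallest change; 10 names picked for their roles; all genes of the list with other symbols; and up to 2 called genes with the largest change in each other list. Places in the ribosome and descent were assigned from general knowledge of its structure. Members and lists were chosen with earlier results of these data known.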

Additional observations from a re-analysis of the deposited data

How the results depend on the processing

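With single libraries left out, the lone library of a group being assumed to vary as the other pair did, the genes called higher numbered 12 to 37 in all (37 with all libraries), 7 to 21 for Mrpl (23) and 5 to 16 for Mrps (14), and the median log2 fold changes ranged from 0.84 to 1.25 for Mrpl and from 0.98 to 1.42 for Mrps. With plain library totals 22 in all, 12 Mrpl and 10 Mrps genes were called, with medians of 0.72 (Mrpl) and 0.73 (Mrps). Against a fold of 1.5, 21 in all, 11 Mrpl and 10 Mrps genes were called. Of all genes, 10.5% were called higher with plain library totals and 9.81% against a fold of 1.5. With DESeq2 size factors, no filter, the stricter filter, DESeq2 and limma-voom the count in all stayed between 36 and 38, and 0 were called lower under every alternative run. Titles number the samples 1 and 2 and columns 4 and 5, so the numbers pair nothing by label. Deviations of same-numbered columns had a correlation of 0.05, and a replicate block by column number called 36, of which 35 were among the 37. The sign turned with single libraries left out for 16 of the 77 genes, 0 of them called. The 6 of these named by rule were Mrpl22 (-0.37 to 0.35, with 0.35 without resting library 5 and 0.27 without tetramer library 5), Mrpl24 (-0.27 to 0.25), Mrpl39 (-0.27 to 0.47), Mrps9 (-0.90 to 0.40), Mrps35 (-0.21 to 0.68) and Mrps28 (-0.11 to 0.99), and library totals turned Mrpl39 (-0.16) and Mrps35 (-0.016). The other 10 were Mrpl4, Mrpl14, Mrpl17, Mrpl19, Mrpl34, Mrpl36, Mrpl44, Mrpl53, Mrps5 and Mrps11. The cause was not tested.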
